A study of Homo sapiens with 4 samples.

Results

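The mitochondrial ribosomal protein genes are the protein-coding genes whose symbol is MRPL or MRPS followed by a number. Of 58233 gene identifiers in the count table, 19683 were protein-coding, and 78 of those met this rule, 49 with an MRPL symbol (large subunit) and 29 with an MRPS symbol (small subunit). All 78 were tested in each line, that is, each had a level of at least 1 CPM (counts scaled to library size) in the CBC or the PBS library of that line. The rule reads gene symbols and uses no measured value, although the family was picked for description with earlier results of these data known.

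The study treated 2 established human pancreatic cancer cell lines, MIA PaCa-2 and PANC-1, with cannabichromene (CBC), a cannabinoid of Cannabis, or with PBS, for 24 h, and sequenced poly(A)-selected RNA. Both lines are labelled WT, and each of the 4 conditions is a single library. According to the study's methods, each line received its own CBC concentration, so line and dose cannot be told apart, and CBC was dissolved in acetonitrile. The methods speak of a vehicle control where the labels give PBS, and whether the control held the solvent is not given in the sources used here. The comparisons asked how this gene family differed between CBC and PBS in each line, and whether the large and the small subunit differed in the same way.

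The mitochondrial ribosome translates the few membrane proteins encoded in mitochondrial DNA, which are core parts of the respiratory chain and of ATP synthase. Its small subunit reads the messenger RNA and its large subunit joins the amino acids and threads the new chain through the exit tunnel. All of its proteins are encoded in the nucleus, made in the cytosol and imported, whereas its ribosomal RNAs are transcribed from mitochondrial DNA, so both genomes supply every particle.

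The libraries held 21742775 to 27903667 counts on genes, and the 3 counts that a count of 0 allows correspond to 0.11 to 0.135 CPM. The keratins KRT8, KRT18 and KRT19 were at 161 to 1801 CPM in every library. KRT7 was low, at 0.0899 and 2.10 CPM in MIA PaCa-2 and at 2.15 and 2.12 CPM in PANC-1 (PBS, CBC). EPCAM and CDH1 were at or near 0 in MIA PaCa-2 and at 1.41 to 11.6 CPM in PANC-1. The 10 markers of leukocytes, endothelium, fibroblasts, acinar cells and islets summed to 0.495 and 1.21 CPM in MIA PaCa-2 (PBS, CBC) and to 136 and 47.1 CPM in PANC-1, where COL1A1 gave 134 and 46.4 CPM. PTPRC, CD3E, PECAM1, CPA1, INS and GCG had no count in any library. The part of the COL1A1 difference in the results was not tested. In a bulk library, fewer cells and less RNA per cell cannot be told apart.

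After CBC, the messenger RNAs of the mitochondrial ribosomal proteins were on balance lower than after PBS in both lines, by a small amount. Their median log2 fold change stood at −0.24 (MIA PaCa-2) and −0.23 (PANC-1), whereas it was −0.014 and 0.020 over all genes tested. In MIA PaCa-2 58 of 78 genes were below 0, against 50.9% of all genes, and in PANC-1 60 of 78 were below 0, against 48.6%. The family kept close together, with an SD of the log2 fold changes of 0.38 and 0.26, where all genes, many of them with fewer counts, had 0.98 and 0.78. The SD was 0.26 and 0.14 for cytosolic ribosomal protein genes and 0.29 and 0.28 for mitochondrial translation factors. A narrow spread was thus not particular to this family. Within a line there is 1 library per condition, so these differences have no replicate check, and the intervals given here are 95% Clopper-Pearson intervals on the ratio of counts, which cover counting error only.

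Few members differed enough to be called by the study's threshold, a log2 fold change above 1 or below −1. In MIA PaCa-2 0 of 78 were past it upwards, against 11.5% of all genes, and 2 were past it downwards, MRPS24 and MRPL42, against 8.97%. In PANC-1 0 were past it upwards and 0 downwards, against 7.71% and 7.03% of all genes. The counting interval lay wholly below 0 for 48 members in MIA PaCa-2 (39.1% of all genes) and for 45 in PANC-1 (35.9%). It lay wholly above 0 for 10 and 8 members, against 37.3% of all genes in each line.

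**Figure D1:**
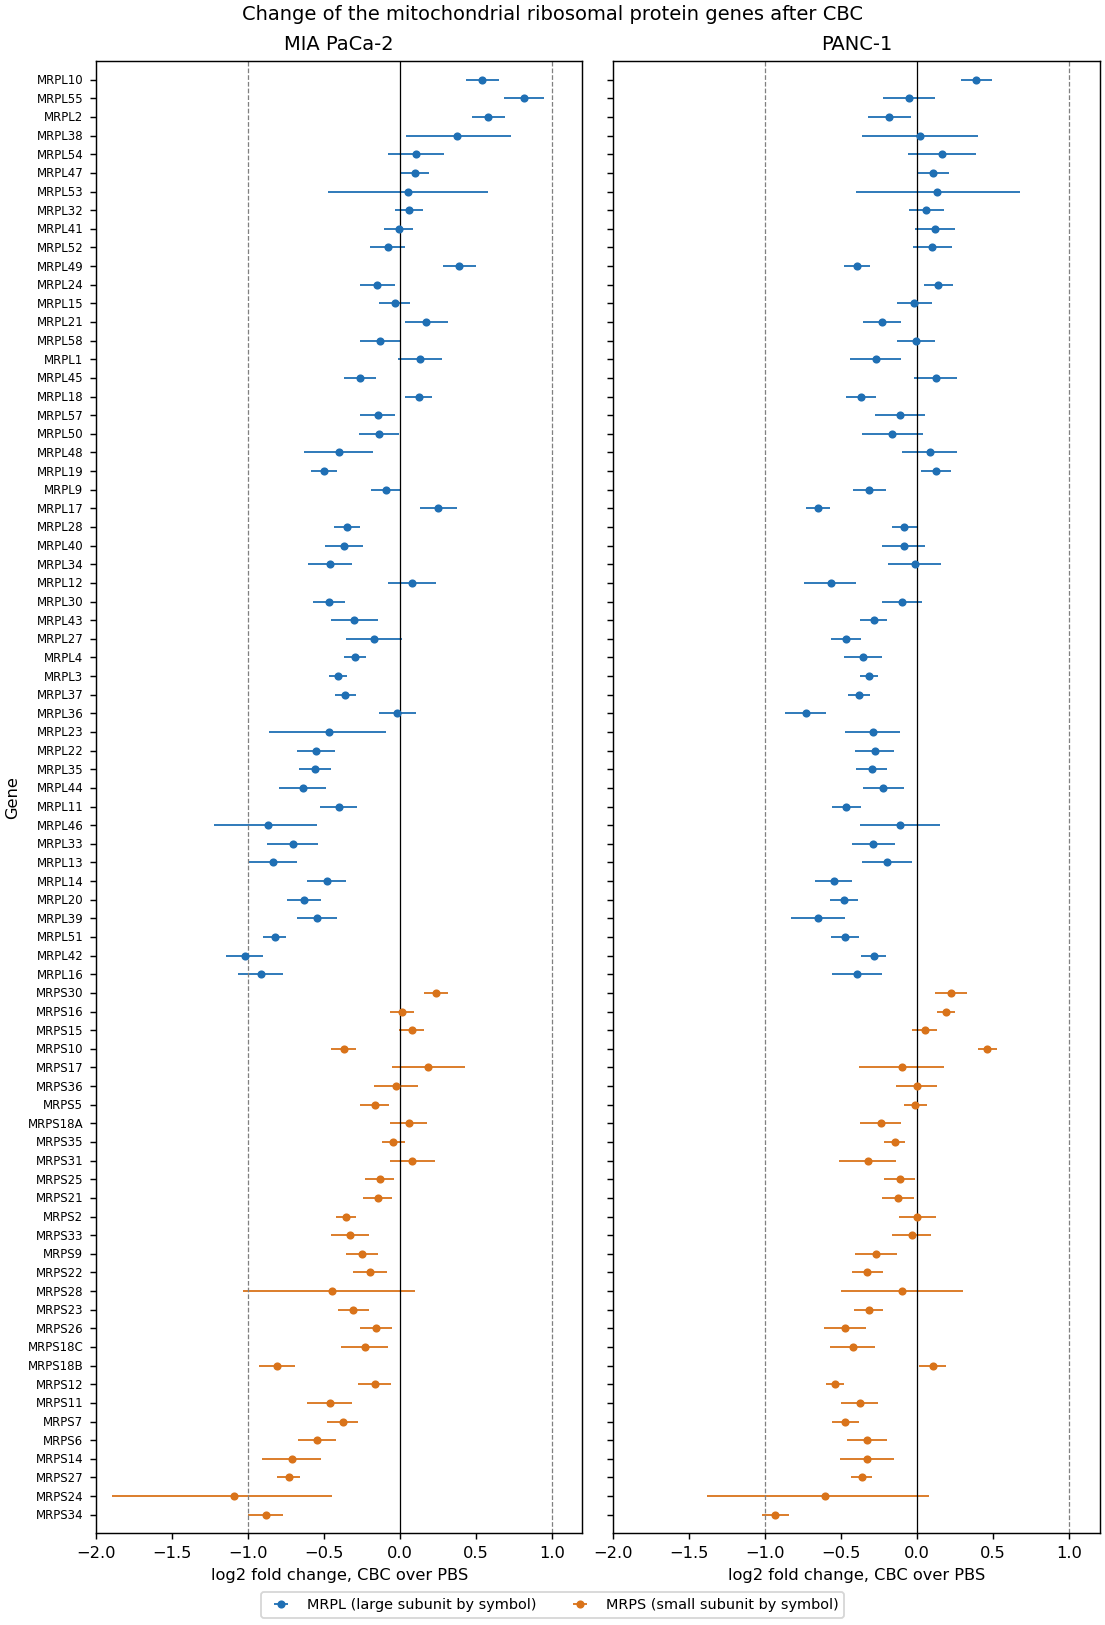
Log2 fold change (x axis, CBC over PBS) of each of the 78 genes (y axis) in MIA PaCa-2 (left) and PANC-1 (right), with MRPL genes in blue and MRPS genes in orange, ordered within each by the fitted change over both lines. Bars are 95% counting intervals and dashed lines mark −1 and 1; 58 and 60 points lie left of 0, and only MRPS24 and MRPL42 in MIA PaCa-2 lie past −1.

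Large and small subunit genes were both lower at the median. In MIA PaCa-2 the median log2 fold change was −0.26 for the 49 MRPL genes and −0.23 for the 29 MRPS genes, a difference of −0.031. In PANC-1 the medians were −0.22 and −0.24, a difference of 0.019. The SD of the log2 fold changes among the members was 0.41 and 0.25 for MRPL and 0.33 and 0.28 for MRPS genes, and the difference between the subunits was not tested. Of the MRPL genes 35 of 49 were below 0 in MIA PaCa-2 and 37 in PANC-1, and of the MRPS genes 23 of 29 were below 0 in each line.

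Symbol and structure do not coincide for every member. MRPS18A and MRPS30 sit in the large subunit, and MRPS36 is now known as a part of the oxoglutarate dehydrogenase complex. Placed by structure, the medians were −0.17 for 51 large subunit genes and −0.28 for 26 small subunit genes in MIA PaCa-2, and −0.22 and −0.30 in PANC-1. Moving MRPS18A and MRPS30 alone gave a large minus small difference of 0.080 in MIA PaCa-2 and 0.049 in PANC-1. The sign of the small difference in MIA PaCa-2 thus depended on the placing of 2 genes.

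The members' share of all counts, which weights each gene by its counts, was also lower after CBC in both lines. It was 0.505% and 0.448% of counts in MIA PaCa-2 (PBS, CBC) and 0.441% and 0.403% in PANC-1, so it was 11.2% and 8.56% lower after CBC. The MRPL share was 11.0% lower in each line. The MRPS share was 11.5% lower in MIA PaCa-2 and 5.51% lower in PANC-1. In PANC-1 the MRPS share thus fell less than the MRPL share, whereas the MRPS median was slightly the lower one (−0.24 against −0.22). Counts on MRPL genes per count on MRPS genes were 1.48 and 1.49 in MIA PaCa-2 and 1.26 and 1.19 in PANC-1 (PBS, CBC).

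**Figure D2:**
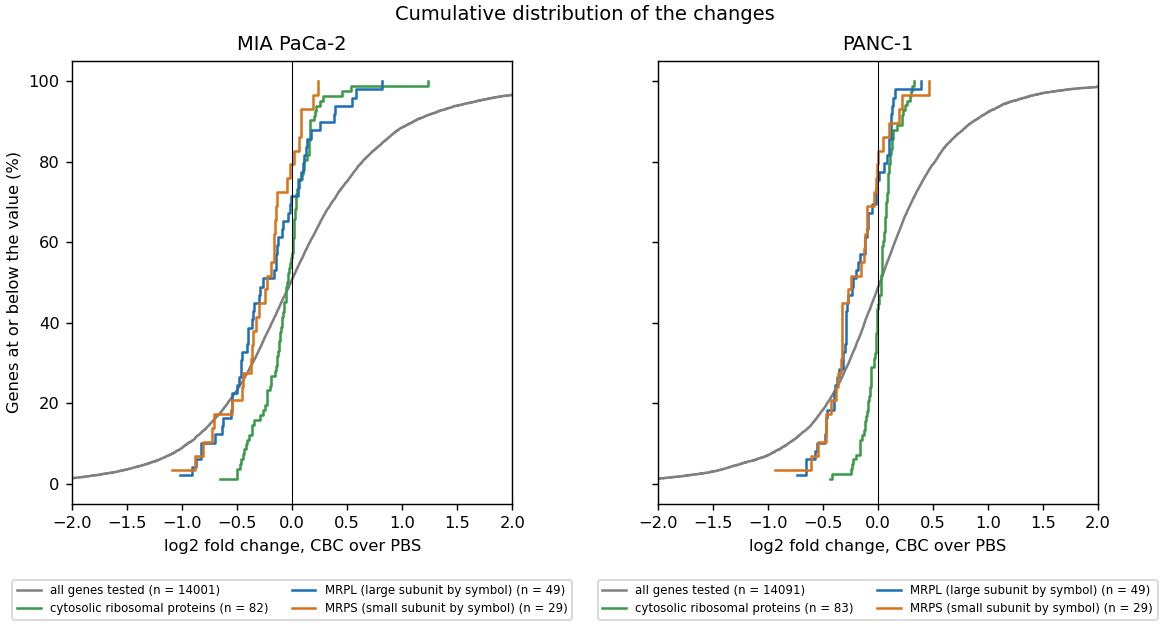
Cumulative share of genes (y axis, percent) at or below each log2 fold change (x axis, CBC over PBS) in MIA PaCa-2 (left) and PANC-1 (right), for MRPL genes, MRPS genes, cytosolic ribosomal protein genes and all genes tested. The MRPL and MRPS curves run together to the left of 0, with medians of −0.26 and −0.23 on the left and −0.22 and −0.24 on the right, while the cytosolic ribosomal protein curves are steep near 0.

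Among the small subunit genes, MRPS34 was lower by nearly the same amount in both lines. It encodes a mitochondria-specific protein needed for a stable small subunit and lies on chromosome 16 (GRCh38, 1771890 to 1773150, minus strand). Its level was 76.3 CPM with PBS and 41.3 CPM with CBC in MIA PaCa-2, and 117 and 61.2 CPM in PANC-1. Both CBC libraries were below both PBS libraries. The log2 fold change was −0.88 (interval −0.998 to −0.77) and −0.93 (−1.02 to −0.85). An exon of EME2 on the opposite strand covers 32.6% of its transcript. EME2 had 498 and 395 counts in MIA PaCa-2 and 1462 and 1150 in PANC-1 (PBS, CBC). The study's methods name a directional library kit, and whether reads were counted by strand is not given in the sources used here. The part of EME2 reads in the MRPS34 counts was not tested.

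MRPS24, a protein of the messenger RNA entry region, had the fewest counts of the family in every library and the most negative value in MIA PaCa-2. It had 52 and 26 counts there and 39 and 30 counts in PANC-1. The log2 fold change was −1.09 (−1.89 to −0.45) and −0.61 (−1.38 to 0.08), so the interval reached 0 in PANC-1. The read-through gene URGCP-MRPS24 covers 90.9% of its transcript on the same strand, and counts of such a pair are uncertain.

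MRPS12 belongs to the decoding centre and was the most abundant small subunit transcript per length in PANC-1. It was at 64.6 CPM with PBS and 57.6 CPM with CBC in MIA PaCa-2, and 215 and 148 CPM in PANC-1. Its log2 fold change was −0.17 (−0.27 to −0.06) and −0.54 (−0.60 to −0.48), lower after CBC in both lines. MRPS16, a homologue of a bacterial small subunit protein, was at 105 CPM with PBS and 106 CPM with CBC in MIA PaCa-2, and 178 and 203 CPM in PANC-1, with log2 fold changes of 0.012 (−0.068 to 0.094) and 0.19 (0.13 to 0.25).

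MRPS10, another bacterial homologue, went opposite ways in the lines. Its level was 118 CPM with PBS and 91.3 CPM with CBC in MIA PaCa-2, and 145 and 199.6 CPM in PANC-1. The log2 fold change was −0.37 (−0.45 to −0.29) in the first and 0.46 (0.40 to 0.53) in the second, the highest value of any member in PANC-1.

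The MRPS18 paralogues share a symbol and not a place in the particle. MRPS18B, a small subunit protein, was at 70.8 CPM with PBS and 40.4 CPM with CBC in MIA PaCa-2, and 75.8 and 81.3 CPM in PANC-1, with log2 fold changes of −0.81 (−0.93 to −0.69) and 0.10 (0.010 to 0.19). MRPS18C, which takes the place of the bacterial protein, was lower in both, at 32.2 and 27.4 CPM and at 34.4 and 25.7 CPM, with −0.23 (−0.39 to −0.08) and −0.42 (−0.57 to −0.28). MRPS18A, a large subunit protein, was at 45.0 and 46.8 CPM and at 40.6 and 34.4 CPM, with 0.06 (−0.07 to 0.18) and −0.24 (−0.38 to −0.11). Exons of ABRAXAS1 and RSPH9 on the opposite strand cover 83.6% of the MRPS18C and 60.6% of the MRPS18A transcript.

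MRPS30, placed in the large subunit by structure, was among the few members that were higher in both lines. It was at 96.2 CPM with PBS and 113 CPM with CBC in MIA PaCa-2, and 54.2 and 63.2 CPM in PANC-1, with log2 fold changes of 0.24 (0.15 to 0.32) and 0.22 (0.12 to 0.33). MRPS28, a homologue of a bacterial small subunit protein, had 62 and 50 counts and then 100 and 112 counts, with intervals that span 0 in both lines (−1.03 to 0.10 and −0.50 to 0.30), so no difference was detectable at this depth.

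Among the large subunit genes, MRPL51 and MRPL3 had the highest levels per length in the PBS library of MIA PaCa-2, and both were lower after CBC in both lines. MRPL51, a mitochondria-specific protein, was at 174 CPM with PBS and 98.1 CPM with CBC in MIA PaCa-2, and 92.0 and 66.2 CPM in PANC-1, with log2 fold changes of −0.83 (−0.90 to −0.75) and −0.47 (−0.56 to −0.38). MRPL3, which reaches towards the peptidyl transferase centre, was at 236 and 178 CPM and at 197 and 158 CPM, with −0.41 (−0.47 to −0.35) and −0.32 (−0.38 to −0.26).

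MRPL42, MRPL16 and MRPL13 had the lowest log2 fold changes of the well-expressed large subunit genes in MIA PaCa-2. MRPL42, a mitochondria-specific protein, was at 68.9 and 34.0 CPM there and at 109 and 89.6 CPM in PANC-1, with −1.02 (−1.14 to −0.90) and −0.29 (−0.37 to −0.20). Its counting interval reached inside the 2-fold threshold. MRPL16, which lines the tRNA path, was at 47.1 and 24.9 CPM and at 28.3 and 21.5 CPM, with −0.92 (−1.06 to −0.77) and −0.40 (−0.56 to −0.23). MRPL13, a bacterial homologue, was at 38.2 and 21.4 CPM and at 25.99 and 22.7 CPM, with −0.83 (−0.99 to −0.68) and −0.20 (−0.36 to −0.03). All 3 were lower in both lines and by more in MIA PaCa-2.

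Other genes were among the most negative of the large subunit in PANC-1. MRPL36, a small bacterial homologue, was at 46.8 CPM with PBS and 46.2 CPM with CBC in MIA PaCa-2, and 46.3 and 27.8 CPM in PANC-1, with log2 fold changes of −0.018 (−0.14 to 0.10) and −0.73 (−0.87 to −0.60). MRPL39, a mitochondria-specific protein, was at 49.8 and 34.1 CPM and at 26.7 and 17.0 CPM, with −0.55 (−0.68 to −0.42) and −0.65 (−0.83 to −0.48). MRPL12 forms the stalk that recruits translation factors, and was at 27.9 and 29.5 CPM and at 27.4 and 18.4 CPM, with 0.08 (−0.08 to 0.24) and −0.57 (−0.74 to −0.40). A same-strand gene without a symbol, with no count in any library, covers 69.5% of the MRPL12 transcript.

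MRPL10, which anchors that stalk, was higher after CBC in both lines. It was at 49.8 CPM with PBS and 72.5 CPM with CBC in MIA PaCa-2, and 54.8 and 71.9 CPM in PANC-1, with log2 fold changes of 0.54 (0.43 to 0.65) and 0.39 (0.29 to 0.49). MRPL10, MRPL47 and MRPS30 were the members whose interval lay above 0 in both lines, that is 3 of 78, against 23.2% of the genes tested in both. By contrast it lay below 0 in both lines for 32 members, against 24.9%.

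MRPL55 and MRPL2 were higher in MIA PaCa-2 and not in PANC-1. MRPL55, a homologue of a bacterial large subunit protein, was at 32.3 and 56.9 CPM and at 23.0 and 22.1 CPM, with log2 fold changes of 0.82 (0.69 to 0.95), the highest value of any member, and −0.05 (−0.23 to 0.12). MRPL2, a protein near the peptidyl transferase centre, was at 48.4 and 72.4 CPM and at 34.5 and 30.4 CPM, with 0.58 (0.47 to 0.69) and −0.18 (−0.33 to −0.04).

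MRPL17 and MRPL49 had the same pattern as MRPL2. MRPL17, which lies by the exit tunnel, was at 44.8 CPM with PBS and 53.4 CPM with CBC in MIA PaCa-2, and 126 and 79.8 CPM in PANC-1, with 0.25 (0.13 to 0.37) and −0.65 (−0.73 to −0.57). MRPL49, a mitochondria-specific protein, was at 52.4 and 68.6 CPM and at 98.4 and 74.8 CPM, with 0.39 (0.28 to 0.50) and −0.39 (−0.48 to −0.31). Opposite-strand exons of SYVN1, whose counts were 982 and 3157 in MIA PaCa-2 and 1846 and 2820 in PANC-1, cover 9.7% of the MRPL49 transcript. The part of SYVN1 reads in the MRPL49 counts was not tested.

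MRPL54 and MRPL38 complete the named genes. MRPL54, a mitochondria-specific protein, was at 20.3 and 21.8 CPM and at 12.8 and 14.3 CPM, with intervals that span 0 in both lines (−0.08 to 0.29 and −0.06 to 0.39). MRPL38 had 120 and 174 counts and then 107 and 130 counts, with 0.38 (0.04 to 0.73) and 0.02 (−0.37 to 0.40), and 94.3% of its transcript is shared with a same-strand gene.

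The lines had the same sign for most members and different sizes. Of the 78 genes, 49 were below 0 in both lines (35.1% of the genes tested in both), 9 were above 0 in both (34.8%) and 20 had opposite signs. For 9 of the 78 genes the counting intervals lay on opposite sides of 0, against 12.7% of the genes tested in both. These were MRPL2, MRPL17, MRPL18, MRPL21, MRPL49, MRPL19, MRPL24, MRPS10 and MRPS18B. The first 5 were higher in MIA PaCa-2 and lower in PANC-1, and the other 4 the reverse. Across the 78 genes, which are not independent replicates and share libraries within each line, the changes in both lines correlated with a Pearson's r of 0.32 and a Spearman's rho of 0.32.

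**Figure D3:**
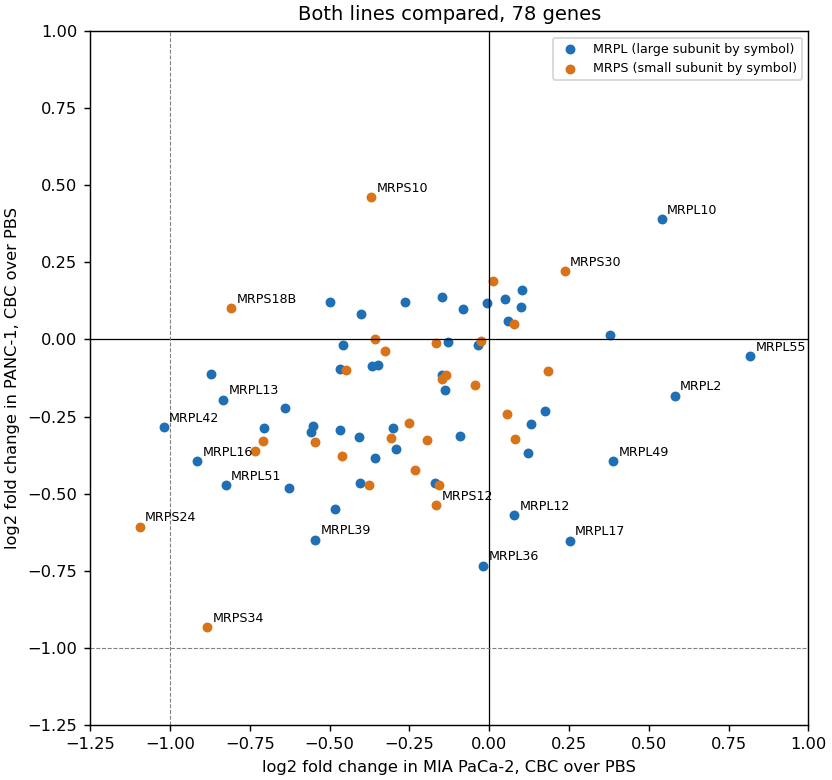
Log2 fold change (CBC over PBS) of each of the 78 genes in MIA PaCa-2 (x axis) and PANC-1 (y axis), MRPL in blue and MRPS in orange, with dashed lines at −1. Most points, 49, lie in the lower left quadrant, where MRPS34 is lowest in PANC-1; MRPL17, MRPL2 and MRPL49 lie at the lower right and MRPS10 and MRPS18B at the upper left.

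With the lines as the replicates, CBC was compared with PBS in edgeR's quasi-likelihood framework, blocking on cell line. It called 0 of 78 members after Benjamini-Hochberg adjustment, where 4.71% of 16381 genes were called (2.26% higher and 2.45% lower). An unadjusted p under 0.05 was reached by 7 members, against 20.9% of all genes. DESeq2 with the same block called 1 of 78 members and 1310 of 16381 genes. The smallest adjusted p in edgeR's test was that of MRPS34, 0.0552, with a log2 fold change of −0.90 (SE 0.21) and lower values in 2 of 2 lines, so it missed the threshold of 0.05. In DESeq2 MRPS34 had an adjusted p of 0.00165 and was the member called. The test has 1 residual degree of freedom among its libraries.

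The members, MRPS36 included, can also be grouped by origin. The 46 homologues of bacterial ribosomal proteins had medians of −0.27 (MIA PaCa-2) and −0.28 (PANC-1), and the 32 mitochondria-specific members had −0.18 and −0.13. Of the former 33 and 37 were below 0, and of the latter 25 and 23. The difference between these groups was not tested.

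The genes of other mitochondrial ribosome proteins, listed under symbols that the rule does not take, were DAP3, PTCD3, CHCHD1, AURKAIP1 and GADD45GIP1. They had medians of −0.17 and −0.39, with 3 and 4 of 5 below 0. The 27 genes of mitoribosome assembly and ribosomal RNA modification had medians of −0.24 and −0.082, with 19 and 15 below 0. The 16 mitochondrial translation factors had medians of −0.32 and −0.044, with 14 and 8 below 0. In edgeR's test over both lines 0 genes of these 3 lists were called, against 4.71% of all genes. An unadjusted p under 0.05 was reached by 1, 1 and 0 of them, against 20.9% of all genes.

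The ribosomal RNAs that these proteins bind fell in both lines. MT-RNR1, the small subunit RNA, was at 7296 CPM with PBS and 3450 CPM with CBC in MIA PaCa-2, and 7595 and 3330 CPM in PANC-1, with log2 fold changes of −1.08 and −1.19 and an adjusted p of 0.0112 in edgeR's test over both lines. MT-RNR2, the large subunit RNA, was at 13849 and 9192 CPM and at 11804 and 5729 CPM, with −0.59 and −1.04 and an adjusted p of 0.0322 in the same test. How poly(A) selection captured these RNAs in each library was not tested.

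Of the 13 proteins that the mitochondrial ribosome makes, all had lower messenger RNA in both lines, with medians of −0.60 and −0.91. In edgeR's test 9 of the 13 were called lower, against 2.45% of all genes. MT-ND6, a subunit of complex I, went from 485 to 90.7 CPM and from 714 to 144 CPM, with log2 fold changes of −2.42 and −2.31 and an adjusted p of 0.0037 by that test. MT-ND6 lies on the other strand of the mitochondrial genome from most genes, so its counts depend on the strand setting. How poly(A) selection captured MT-ND6 and the other mitochondrial messenger RNAs in each library was not tested. The share of counts on all mitochondrially encoded genes was 33.7% lower in MIA PaCa-2 and 47.7% lower in PANC-1.

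The messenger RNAs for the proteins of the cytosolic ribosome, which translates nuclear messages, had medians near 0. Of 87 cytosolic ribosomal protein genes, 82 were tested in MIA PaCa-2 and 83 in PANC-1, with medians of −0.041 and 0.031 and 46 and 36 below 0. Their share of counts was 3.61% and 8.17% higher after CBC. In edgeR's test 0 of them were called, against 4.71% of all genes, and 2 had an unadjusted p under 0.05, against 20.9%. Their median in MIA PaCa-2 was 0.024 when libraries were scaled by their totals.

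The members are short genes with a wide range of levels. Their transcripts had a median length of 1242 bases, against 3361 for the protein-coding genes tested, a median coding length of 585 against 1413 bases, and a GC content of 48.2% against 48.9%. They lie on 21 chromosomes, at most 8 on one. The median level per length, in CPM per kb of transcript, was 41.6 and 36.6 in MIA PaCa-2 and 33.5 and 30.4 in PANC-1 (PBS, CBC). By subunit these medians were 39.8, 35.9, 33.4 and 30.7 for MRPL genes and 46.9, 39.0, 33.6 and 29.5 for MRPS genes, in the same order.

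Per length, MRPL51, MRPS12 and MRPL3 had the highest means over both controls, and MRPS24, MRPL38 and MRPS28 the lowest. These last 3 each share at least 50% of their transcript with another gene on the same strand, as MRPL53, MRPL46 and MRPL12 do, and reads shared by genes can be lost in counting. The level of MRPL42 per length is understated if its long annotated transcript of 15557 bases is not the one expressed. The order of the levels was close in CBC and PBS, with Spearman's rho across the 78 genes of 0.94 between PBS and CBC in MIA PaCa-2 and 0.97 in PANC-1, against 0.82 between both controls.

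**Figure D4:**
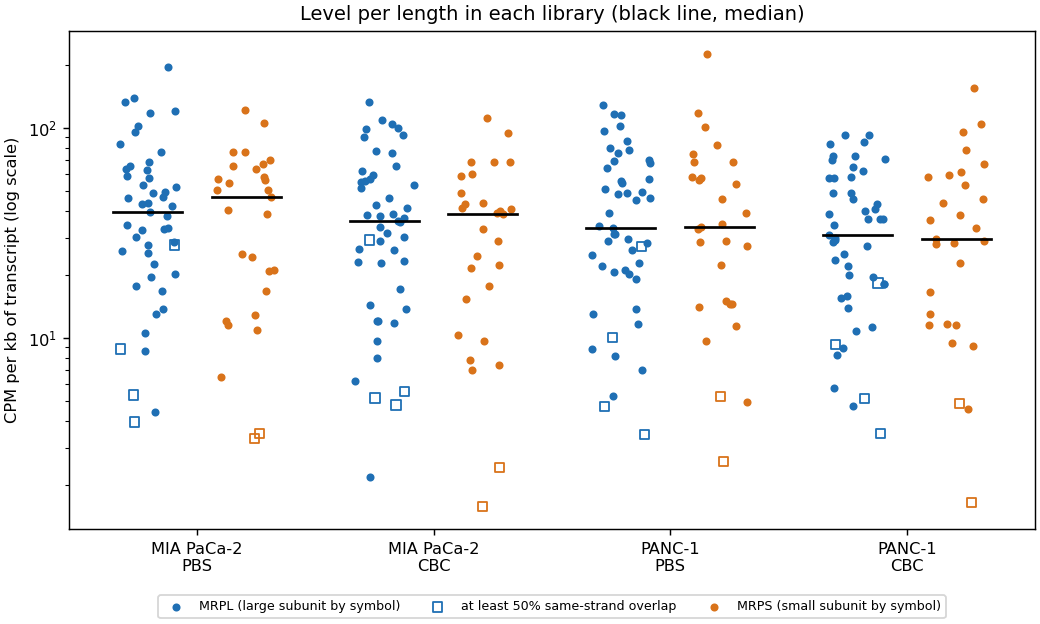
Level of each gene in CPM per kb of transcript (y axis, log scale) in the 4 libraries (x axis), MRPL in blue and MRPS in orange, with black lines at the medians. Open squares are the 6 genes that share at least 50% of their transcript with another gene on the same strand; nearly all of them lie near the bottom, and the medians are a little lower in each CBC library than in its PBS library.

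The members' levels differed more widely between the lines than between CBC and PBS. In the controls the log2 ratio of PANC-1 to MIA PaCa-2 had a median of −0.12 (−0.24 for MRPL and 0.046 for MRPS) and an SD of 0.72. It was above 1 for 5 members and below −1 for 6. MRPL23 (5.85 CPM in MIA PaCa-2 and 22.5 CPM in PANC-1), MRPL27 (22.3 and 79.7 CPM), MRPS12, MRPL17 and MRPL43 (32.8 and 86.7 CPM) were higher in PANC-1, by 3.84, 3.57, 3.33, 2.80 and 2.65 times. MRPS2 (177 and 42.2 CPM) and MRPL4 (147 and 47.9 CPM) were lower in PANC-1, with MRPL50, MRPL57, MRPL45 and MRPL41. These 11 ratios compare 1 library with 1 library and have no replicate check.

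**Figure D5:**
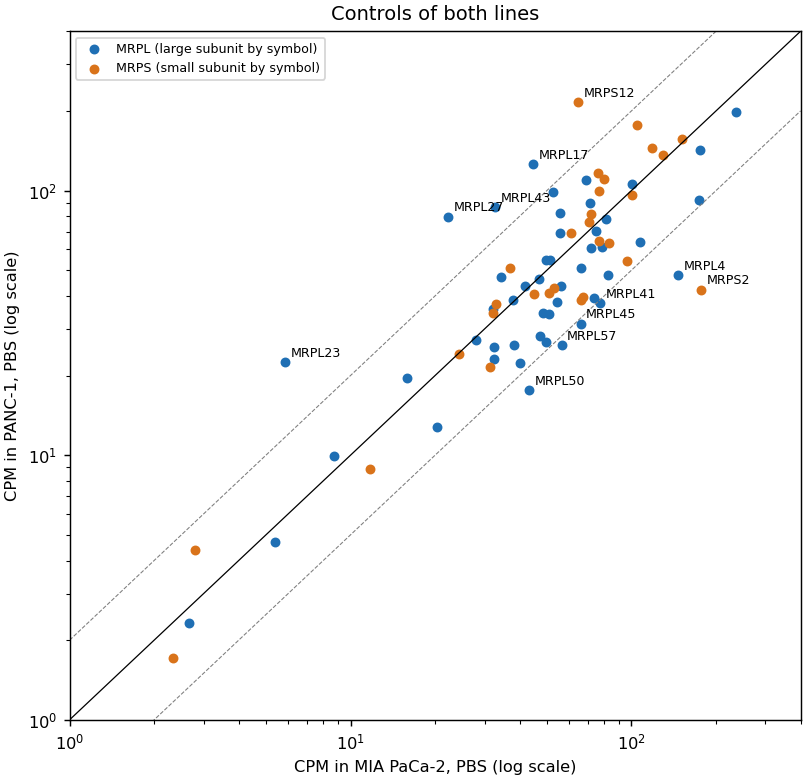
CPM of each of the 78 genes in the PBS library of MIA PaCa-2 (x axis) and of PANC-1 (y axis), both on log scales, MRPL in blue and MRPS in orange. The solid line marks equal levels and the dashed lines a 2-fold difference; 5 named genes lie above the upper dashed line and 6 below the lower one.

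Promoter sequences from RefSeq (GRCh38.p14, 250 bases before to 50 after the start) were at hand for 69 of the 78 members, in 85 windows because 11 members have several starts. The letters CCGGAAG, the core bound by ETS factors such as GABP, stood on either strand in 38.8% of the members' windows, against 10.3% of all windows and 12.8% of windows of protein-coding genes. These belonged to 30 members, 18 large and 12 small. The YY1 letters AAGATGGCG stood in 15.3% of members' windows, against 1.75% of all and 2.41% of protein-coding ones, and although both motifs can share 3 letters, they overlapped in 0 members' windows.

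The NRF1 palindrome, spelled out in capitals in the MRPL17 sequence, stood in 1.18% of members' windows (1.24% of all and 1.5% of protein-coding ones). The E-box CACGTG stood in 10.6% (7.26% of all and 8.34% of protein-coding ones). The ATF4-type letters TGATGCAA stood in 0 of 85 (0.866% of all and 0.676% of protein-coding ones). The motifs are descriptions of letters and not bound sites. Stretches of 60 bases upstream of the start are shown for some of the named members that carry an ETS core, to show where it stands. The member with NRF1 letters and one with an E-box follow. The stretches were taken from the 250 bases before the start alone, and other named members may carry the core. The stretches of MRPL51 and MRPL38, which carry the core too, are not shown because they reach far into the gene as GENCODE annotates it. They are written on the gene's strand with the motif in capitals, as CTTCCGG where the core is on the other strand:
MRPS34: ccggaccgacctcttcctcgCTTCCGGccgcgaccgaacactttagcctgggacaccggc
MRPS10: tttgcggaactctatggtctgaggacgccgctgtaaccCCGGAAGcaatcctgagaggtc
MRPS12: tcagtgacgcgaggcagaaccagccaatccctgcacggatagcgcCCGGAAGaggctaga
MRPS18A: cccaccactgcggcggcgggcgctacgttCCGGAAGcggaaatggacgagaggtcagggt
MRPS18C: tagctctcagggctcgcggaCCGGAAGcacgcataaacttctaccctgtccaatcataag
MRPL3: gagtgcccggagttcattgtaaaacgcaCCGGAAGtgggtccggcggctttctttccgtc
MRPL54: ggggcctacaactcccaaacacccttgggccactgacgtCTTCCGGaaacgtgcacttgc
MRPL17: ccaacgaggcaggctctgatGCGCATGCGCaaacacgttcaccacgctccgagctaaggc
MRPL49: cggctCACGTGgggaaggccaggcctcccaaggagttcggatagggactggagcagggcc

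In order, they lie at chr16:1773166-1773225 (minus), chr6:42217862-42217921 (minus), chr19:38930894-38930953 (plus), chr6:43687792-43687851 (minus), chr4:83455816-83455875 (plus), chr3:131502972-131503031 (minus), chr19:3762622-3762681 (plus), chr11:6683382-6683441 (minus) and chr11:65121933-65121992 (plus). Of the members shown with the ETS core, MRPS34, MRPS12, MRPS18C and MRPL3 were lower in both lines, with intervals below 0. MRPS10 was lower in MIA PaCa-2 and higher in PANC-1, the MRPS18A interval lay below 0 in PANC-1 alone, and those of MRPL54 spanned 0. With the ETS core, members had medians of −0.21 (MIA PaCa-2) and −0.26 (PANC-1), and without it −0.26 and −0.27. With the YY1 letters the medians were −0.14 and −0.11, and without them −0.26 and −0.29. With an E-box they were −0.33 and −0.39, and without it −0.18 and −0.23. These differences were not tested, and the 13 members with YY1 letters and 9 with an E-box are few.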

How the data were processed

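The authors removed adapters and low-quality reads (cutadapt 2.7), mapped the rest with STAR to GRCh38, and obtained counts for the genes of Ensembl release 89 with HTSeq. The deposited table holds these raw counts, and a deposited signal per library is a CPM that the authors scaled with edgeR's TMM method (it differed from the counts so scaled by at most 6.84e-09, relative). The study's methods name a directional library kit. The strand setting and mode of counting are not given in the sources used here. Symbols, positions and transcript lengths came from GENCODE release 44 (GRCh38), and 57392 of 58233 identifiers had a symbol.

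All values were computed from the counts with edgeR 4.0.16 (TMM, prior count 2) in R 4.3.3, scipy 1.17.1 and pandas 2.3.3, with genes tested at 1 CPM or more in a library of the line. The test across lines used edgeR's quasi-likelihood method with the cell line as a block, after edgeR's own filter, and was tested on simulated data. The pairing comes from the cell lines, whose libraries' deviations from the treatment means correlated at 0.92 across genes. DESeq2 1.42.0 was the alternative tool. Intervals at 95% and the floor of 3 counts cover counting error only.

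The members, the lists of pathway and marker genes and the rule for named genes were chosen with earlier results of these data known. Named were members past 2-fold in a line, those called across lines, the 5 with the largest increase and decrease in each line (at 10 CPM or more), the 3 highest and lowest per length, the 3 with the largest difference between lines, up to 5 with intervals on opposite sides of 0, and MRPS18A, MRPS18B, MRPS18C and MRPS30. Of the lists, genes past 2-fold in both lines and the mitochondrial ribosomal RNAs were named.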

Additional observations from a re-analysis of the deposited data

Results flagged for a closer look

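Counting intervals lay on opposite sides of 0 in the lines for 9 of 78 members, against 12.7% of the genes tested in both lines. The 5 largest such differences of the log2 fold change (MIA PaCa-2 minus PANC-1) are given here. The difference was 0.91 for MRPL17, 0.76 for MRPL2, 0.78 for MRPL49, −0.83 for MRPS10 and −0.91 for MRPS18B. With 1 library per condition the difference between the lines was not tested, and line and CBC dose cannot be told apart.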

How the results depend on the processing

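The medians stayed below 0 in both lines under every alternative that was run. In MIA PaCa-2 cells the median was −0.26 with DESeq2 size factors, −0.18 with library totals, −0.22 with the GC trend removed (over all or over protein-coding genes), −0.27 with the length trend removed and −0.30 over the 42 members without pseudogenes, a restriction chosen after seeing the data. In PANC-1 cells it was −0.26 with TMM within the line, −0.24 with DESeq2 size factors, −0.16 with library totals and −0.27 without pseudogenes. Library totals moved the median of all genes to 0.050 and 0.090, and the members' distance from it was −0.23 and −0.25 under each scaling. With library totals 53 of 78 members were below 0 in each line.

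The count past 2-fold in MIA PaCa-2 cells was 1 with library totals, at 5 CPM, and with the GC, protein-coding GC or length trend removed, and 0 when the counting interval had to lie wholly past 2-fold. With library totals MRPL42 had −0.96. The difference between subunits (large minus small) changed sign with the choice made. In MIA PaCa-2 cells it was −0.082 at 5 CPM, 0.014 and 0.0058 with the GC trends removed, 0.080 with MRPS18A and MRPS30 counted as large subunit genes, −0.098 without members sharing at least 50% of their transcript and 0.19 without pseudogenes. In PANC-1 cells it was −0.042 and −0.034 with the GC trends removed, 0.049 with MRPS18A and MRPS30 counted as large, 0.11 without pseudogenes and −0.036 at 500 counts or more. The restrictions to members without shared transcripts, without pseudogenes or at 500 counts were chosen after seeing the data, and the causes were not tested. The log2 ratio of the members' share of counts, −0.17 and −0.13, was −0.20 and −0.16 without mitochondrially encoded genes.

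Without the cell line as a block, edgeR's test called 0 members and 0 of 16381 genes. With the block and no filter, edgeR's test called 1 member, MRPS34 (adjusted p = 0.00617), and 2063 of 28834 genes. DESeq2 with the block called 1 member and 1310 of 16381 genes. Leaving out a library was not possible with 1 per condition. Depth set the half-width of a member's counting interval at 0.12 (median, log2) in each line and at up to 0.73 for the lowest ones.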

Other observations

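Of the 24 tested genes of mitochondrial import and biogenesis, 7 had an unadjusted p under 0.05 in edgeR's test over both lines, against 20.9% of all genes, and 0 were called. TFAM, which packages mitochondrial DNA and starts its transcription, was at 112 CPM with PBS and 64.9 CPM with CBC in MIA PaCa-2, and 117 and 73.1 CPM in PANC-1, with log2 fold changes of −0.78 and −0.68 and an adjusted p of 0.0944 in that test. POLRMT, the mitochondrial RNA polymerase, was at 81.7 and 119 CPM and at 63.7 and 62.4 CPM, with 0.55 and −0.03. DAP3, a small subunit protein with another symbol, was at 144 and 204 CPM and at 163 and 179.6 CPM, with 0.50 and 0.14. HSPA9 and HSPE1, of the same list as TFAM, had smaller adjusted p in edgeR's test over both lines, 0.0808 and 0.0865. HSPA9 was higher after CBC, with log2 fold changes of 0.86 (MIA PaCa-2) and 0.47 (PANC-1). HSPE1 was lower, with −0.70 and −0.90. TFAM, POLRMT, DAP3, HSPA9 and HSPE1 were chosen after their values were seen.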
